A study of Mus musculus with 27 samples.

Results

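The glycolysis and hypoxia target genes were followed across a hydrogen peroxide time course in mouse embryonic stem cells. The set holds 37 gene symbols: glucose transporters, the enzymes of glycolysis, lactate and pyruvate handling, oxygen sensing, and targets of hypoxia-inducible factor (HIF) outside glycolysis. Members were taken by symbol, which gave 38 of the 38352 gene rows in the deposited tables, because Aldoa has 2 gene models. Of these rows, 37 reached 1 FPKM (fragments mapped to a gene, scaled to its transcript length and to the library's mapped fragments) in at least 3 libraries and were tested. The remaining one, Adm (adrenomedullin, a vasodilator peptide), ranged over 0 to 0.347 FPKM in the 27 libraries and was not tested.

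The cells were wild-type E14Tg2a, an established mouse embryonic stem cell line, grown in serum medium with LIF and the 2i inhibitors that hold cells in a naive state. Treated cells received hydrogen peroxide for 30 min at 500 µM, as the treatment protocol gives it, while the design text of the series writes the same number with mM. They then got spent medium from untreated cells and were harvested 0.5, 2, 4, 6, 8, 10 or 24 h after the start, the 0.5 h cells directly at the end of the exposure. Untreated cells were harvested at 24 h and at 0 h. Each of the 9 groups had 3 libraries, described as biological replicates from independent time courses. Treated cells from 0.5 h to 10 h were set against untreated 0 h cells, and treated 24 h cells against untreated 24 h cells. Time in culture was therefore matched at 24 h only. No group had the medium change alone, so from 2 h on the effects of peroxide and of the spent medium cannot be told apart.

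Glycolysis splits glucose to pyruvate, and lactate dehydrogenase turns pyruvate into lactate, which monocarboxylate transporters carry out of the cell. HIF is a dimer of an oxygen-regulated alpha subunit, such as the product of Hif1a, with ARNT. With oxygen, prolyl hydroxylases encoded by Egln1 and Egln3 mark the alpha subunit for destruction. Without it, HIF binds the core letters ACGTG or GCGTG near its targets, which include most genes of glycolysis and Egln1 and Egln3 themselves. Pluripotent stem cells are known for high glycolytic rates.

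The pluripotency markers Pou5f1 and Nanog were detected in every library. Pou5f1 lay between 402 and 938 FPKM, while Nanog had 296 to 371 FPKM in untreated 0 h cells, 99.5 to 118 at 4 h, 89.7 to 89.9 at 6 h, 221 to 227 at 8 h and 227 to 243 at 10 h. Nanog had 355 to 374 FPKM in treated 24 h cells, against 359.9 to 392 FPKM in untreated 24 h cells. The part of its lower level from 4 h to 10 h in the changes of the members was not tested. Of the 27 libraries, 4 stood apart within their groups: untreated 0 h replicate 3, 2 h replicate 1, 8 h replicate 3 and 10 h replicate 3. In them log2 expression rose with GC content by 0.19 to 0.36 for every 10 percentage points, and ribosomal protein genes were shifted upward by 0.36 to 0.90 on the log2 scale, both relative to untreated 0 h replicates 1 and 2. The whole 4 h group carried the same trend, with slopes of 0.13 to 0.20 and ribosomal shifts of 0.28 to 0.44. So did the whole 6 h group, with slopes of 0.10 to 0.11 and ribosomal shifts of 0.22 to 0.27. Untreated 24 h replicates 1 and 3 carried it as well, with slopes of 0.18 and 0.11 and shifts of 0.38 and 0.44, against a slope of 0.024 and a shift of 0.14 in replicate 2. The summed FPKM of 20 hepatocyte markers, none of which was at 0 in all libraries, was 50.5 to 73.2 at 0.5 h and 46.7 to 63.1 in untreated 24 h cells. The 6 h replicate 3 library had 50.7, the 8 h replicates 1 and 2 had 67.1 and 58.2, and untreated 0 h replicate 3 had 7.43; all others lay between 1.44 and 2.33. The sum of 10 astrocyte and other brain markers, none of them at 0 in all libraries, was 2.28 to 4.53 in untreated 0 h cells, 8.23 to 8.70 at 0.5 h, 4.74 to 9.30 at 2 h, 2.89 to 3.58 at 4 h, 3.04 to 11.4 at 6 h, 9.87 to 11.8 at 8 h and 5.20 to 11.0 at 10 h. It was 4.81 to 9.91 in treated 24 h cells, against 7.93 to 8.66 in untreated 24 h cells. Gfap, an astrocyte marker, had 2.23 to 2.90 FPKM at 8 h, against 0.0902 to 0.246 FPKM in untreated 0 h cells.

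Members with the largest called falls and rises on the log2(FPKM + 1) scale are shown here by the promoter sequence of RefSeq on GRCm38.p6, from 250 bases before to 50 bases after the annotated start, among members with a single entry in that table. Capitals mark the HIF core letters ACGTG or GCGTG read on either strand, so that they appear as CACGT or CACGC on the other. Slc16a3 (chr11:120948817-120949116, plus strand) and Bnip3 (chr7:138909457-138909756, minus strand) fell, as did Tpi1 (chr6:124814109-124814408, minus strand), while Pfkfb4 (chr9:108991652-108991951, plus strand) rose.
Slc16a3: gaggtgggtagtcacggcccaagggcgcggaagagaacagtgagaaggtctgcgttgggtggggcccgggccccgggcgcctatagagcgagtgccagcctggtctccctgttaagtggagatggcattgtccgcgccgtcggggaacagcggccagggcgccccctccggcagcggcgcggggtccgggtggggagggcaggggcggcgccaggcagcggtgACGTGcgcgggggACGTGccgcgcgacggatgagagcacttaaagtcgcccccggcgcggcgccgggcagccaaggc
Bnip3: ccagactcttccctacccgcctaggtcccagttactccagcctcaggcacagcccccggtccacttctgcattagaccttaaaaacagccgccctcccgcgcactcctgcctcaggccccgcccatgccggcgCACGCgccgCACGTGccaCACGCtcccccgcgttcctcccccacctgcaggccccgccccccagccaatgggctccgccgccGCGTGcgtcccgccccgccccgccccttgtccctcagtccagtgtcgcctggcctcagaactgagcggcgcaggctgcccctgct
Tpi1: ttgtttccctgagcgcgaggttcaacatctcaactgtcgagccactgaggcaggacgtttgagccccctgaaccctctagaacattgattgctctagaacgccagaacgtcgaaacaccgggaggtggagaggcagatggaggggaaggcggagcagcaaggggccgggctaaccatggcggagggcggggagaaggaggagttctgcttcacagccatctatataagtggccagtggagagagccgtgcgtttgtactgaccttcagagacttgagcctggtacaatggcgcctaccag
Pfkfb4: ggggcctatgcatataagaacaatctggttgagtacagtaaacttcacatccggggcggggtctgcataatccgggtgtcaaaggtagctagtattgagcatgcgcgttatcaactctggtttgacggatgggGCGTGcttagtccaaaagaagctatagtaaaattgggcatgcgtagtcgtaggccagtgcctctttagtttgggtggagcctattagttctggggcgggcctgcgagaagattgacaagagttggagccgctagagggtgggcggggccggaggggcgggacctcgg

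Slc16a3 had 2 matches, both reading ACGTG, which began at positions -27 and -14 from the start site. Bnip3 had 5 matches, beginning at -117, -108, -107, -99 and -35. Those at -108 and -107 are 1 palindrome read on both strands, which is also the E-box CACGTG. Pfkfb4 had a single match at -117 and Tpi1 had none in this window. At least 1 match was found in 38 of 47 promoter entries of the members (80.9%), which covered 33 of the 37 symbols. Among promoters of all tested genes the share was 62.7% of 11793, and 43.8% of all 32851 promoters listed had a match. The letters are thus common in promoters of expressed genes, and a match says only that they are there. Among the members without an entry were Bhlhe40, Ndrg1, Bnip3l and Slc2a3.

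Members moved in both directions between 4 h and 10 h, and at 24 h all called changes but that of Pfkm were lower. A row was called changed at a Benjamini-Hochberg adjusted p below 0.05 in limma over 13614 tested genes, and changes are differences of mean log2(FPKM + 1) with n = 3 in each group. At 0.5 h none of the 37 tested rows was called (0.0808% of all tested genes were), although 1352 of all tested genes had an unadjusted p below 0.05. At 2 h a single member was called, Bhlhe40, and it was higher (1.07% of all genes, 0.499% higher and 0.566% lower). At 4 h 8 rows rose and 6 fell (26.3% of all genes, 14.2% higher and 12.1% lower), and at 6 h 8 rose and 10 fell (42.3%, 22.3% higher and 20.0% lower). At 8 h 8 rose and 11 fell (40.7%, 29.2% higher and 11.6% lower), and at 10 h 7 rose and 11 fell (31.7%, 22.2% higher and 9.43% lower). In total 14, 18, 19 and 18 of the 37 rows were called at these times, when many other genes changed too. At 8 h 29.7% of the member rows were lower and 21.6% higher. At 24 h 1 member rose and 14 fell (12.9% of all genes, 8.63% higher and 4.28% lower), so that 37.8% of the rows were lower, against 4.28% of all genes. Between the untreated groups 11 members were higher at 24 h than at 0 h and none lower (0.705%, 0.426% higher and 0.279% lower), so that 29.7% of the rows were higher, against 0.426% of all genes.

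**Figure D1:**
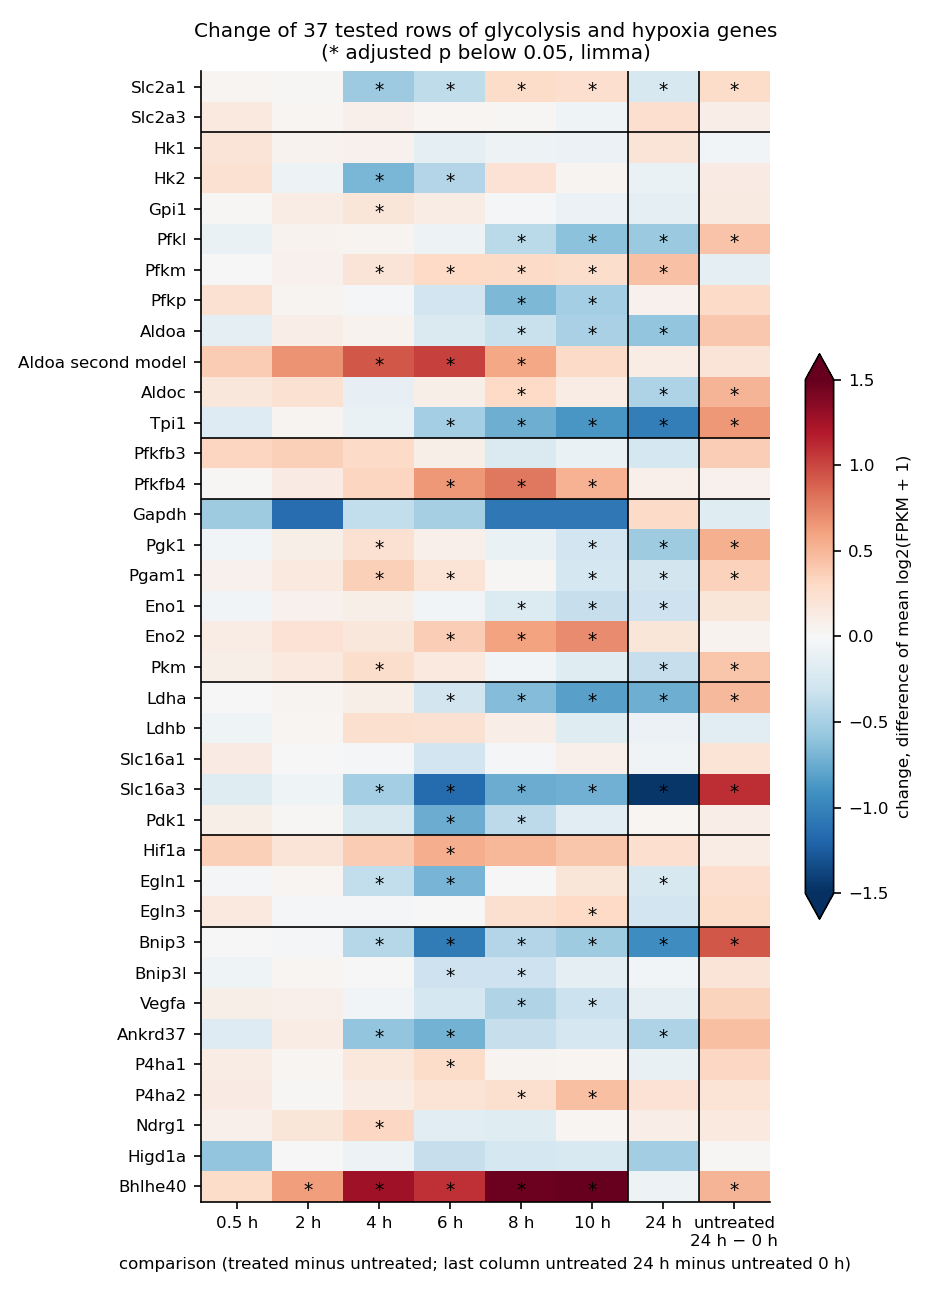
Change of each tested row (difference of mean log2(FPKM + 1), colour; n = 3 libraries a group) in 7 treated comparisons and between the untreated groups; a star marks an adjusted p below 0.05 in limma, and horizontal lines part the roles in the order of the text. Called falls of Slc2a1, Hk2, Egln1, Bnip3 and Slc16a3 begin at 4 h and those of Tpi1 and Ldha at 6 h; the last 2 columns share the untreated 24 h libraries.

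**Figure D2:**
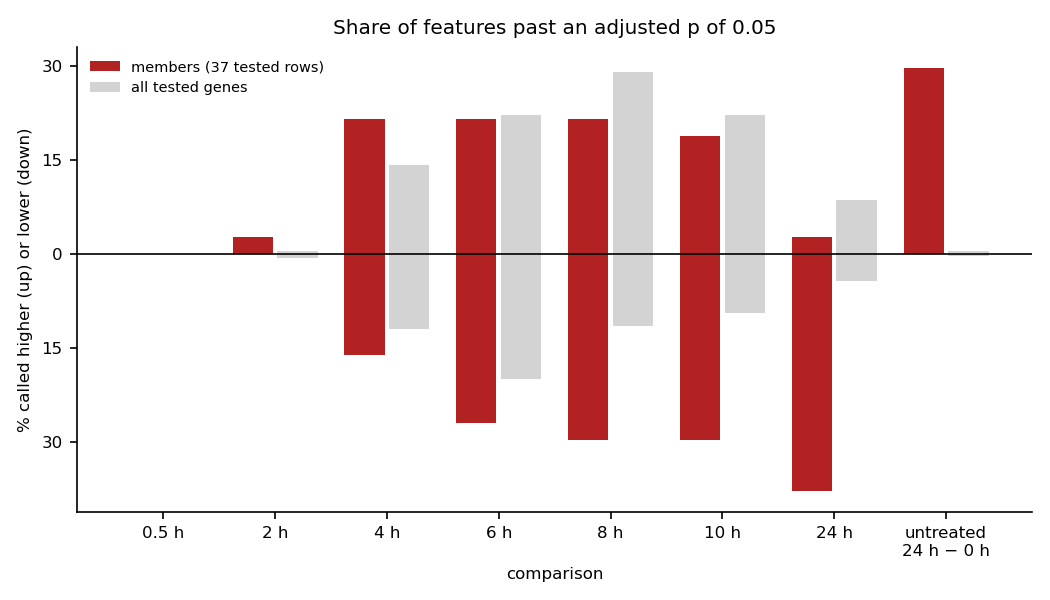
Percentage of the 37 tested member rows (red) and of all 13614 tested genes (grey) called higher (upward) or lower (downward) at an adjusted p below 0.05. At 24 h 37.8% of the rows were lower against 4.28% of all genes, and between the untreated groups 29.7% were higher against 0.426%.

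Scaling bears on these splits at 8 h and 10 h. The median change of all genes was 0.11 at both times, and −0.013 and 0.0042 after median-of-ratios scaling. With scaling the member split became 4 higher and 17 lower at 8 h, and 4 higher and 14 lower at 10 h. Over all genes it became 2874 higher and 2496 lower at 8 h, against 3969 and 1576 without scaling, and 2167 and 1994 at 10 h, against 3025 and 1284. Calls that rested on the unscaled values are named with their genes.

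Between neighbouring treated times the largest numbers of members changed in the steps from 2 h to 8 h. None changed between 0.5 h and 2 h (1.17% of all genes, 0.367% higher and 0.801% lower). Between 2 h and 4 h 2 rows rose and 7 fell (20.1%, 10.2% higher and 9.89% lower), and between 4 h and 6 h 1 rose and 8 fell (20.1%, 11.6% higher and 8.48% lower). Between 6 h and 8 h 6 rose and 6 fell (24.1%, 18.1% higher and 6.02% lower). In that step a fit with the replicate block ended the calls of Gpi1 (adjusted p = 0.0544), Pgk1 (0.0529) and Pkm (0.0585) and added Pfkp (0.0412). Between 8 h and 10 h 1 fell (5.37%, 1.78% higher and 3.58% lower). With scaling Bhlhe40 was called between 0.5 h and 2 h (0.38), and Tpi1 was lost between 4 h and 6 h (adjusted p = 0.127). Between 6 h and 8 h scaling ended the rise of Slc16a3 (0.102) and added falls of Pfkp, the second Aldoa model, Pfkfb3, Eno1 and P4ha1. All genes then split into 1675 higher and 1628 lower in that step, against 2465 and 820 unscaled. Between 8 h and 10 h it added rises of Bnip3l and Ndrg1.

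Slc2a1 (ENSMUSG00000028645, chr4:119108711-119137983, GRCm38) encodes GLUT1, the main glucose importer of proliferating cells. It had 40.7, 44.9 and 41.0 FPKM in untreated 0 h cells, then 43.5, 43.7 and 42.5 at 0.5 h, 44.0, 42.6 and 41.4 at 2 h, 27.9, 28.8 and 28.8 at 4 h, 31.8, 32.1 and 33.0 at 6 h, 48.8, 51.0 and 54.4 at 8 h and 52.8, 47.8 and 51.1 at 10 h. All 4 h and 6 h libraries lay below every untreated 0 h library, and all 8 h and 10 h libraries above. In bulk RNA a change within every cell and a change in the share of cells that express a gene cannot be told apart. The fall was −0.55 ± 0.054 (SE) at 4 h (adjusted p = 8.43e-08) and −0.38 ± 0.054 at 6 h (adjusted p = 7.3e-06). The step between 6 h and 8 h was a rise of 0.65 ± 0.054 (adjusted p = 1.63e-08). The excess over untreated 0 h at 8 h (0.28) and 10 h (0.25) was called without scaling and lost with it, at 0.12 each time (adjusted p = 0.128 and 0.141).

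Hk2, the hexokinase that traps imported glucose, dipped at the same time as Slc2a1. It had 26.0, 29.1 and 26.0 FPKM at 4 h, against 52.1, 52.5 and 31.4 FPKM in untreated 0 h cells, where replicate 3 was one of the libraries that stood apart. All 4 h libraries were lower than every untreated one. The change was −0.69 ± 0.18 (adjusted p = 0.00499), and −0.93 with the 4 libraries left out. At 6 h Hk2 had 32.8, 31.1 and 33.0 FPKM and a change of −0.44 (adjusted p = 0.0487), a call that ended when any 1 of 20 of the 27 libraries was left out (adjusted p up to 0.187). The 6 h change without the 4 libraries was −0.68 (adjusted p = 5.64e-07). The step between 6 h and 8 h was 0.65 ± 0.18 (adjusted p = 0.00845), and 8 h libraries had 55.0, 55.4 and 44.2 FPKM. The paralogs did not share the pattern at the threshold: Hk1 and Slc2a3, the high-affinity glucose transporter known from neurons, were called at no treated time. Slc2a3 had 109 to 123 FPKM at 4 h, against 79.0 to 129.5 FPKM in untreated 0 h cells. Without the 4 libraries it was lower at 4 h (−0.15, adjusted p = 0.0415) and at 6 h (−0.20, adjusted p = 0.00673), as Hk1 was at 6 h (−0.35).

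**Figure D3:**
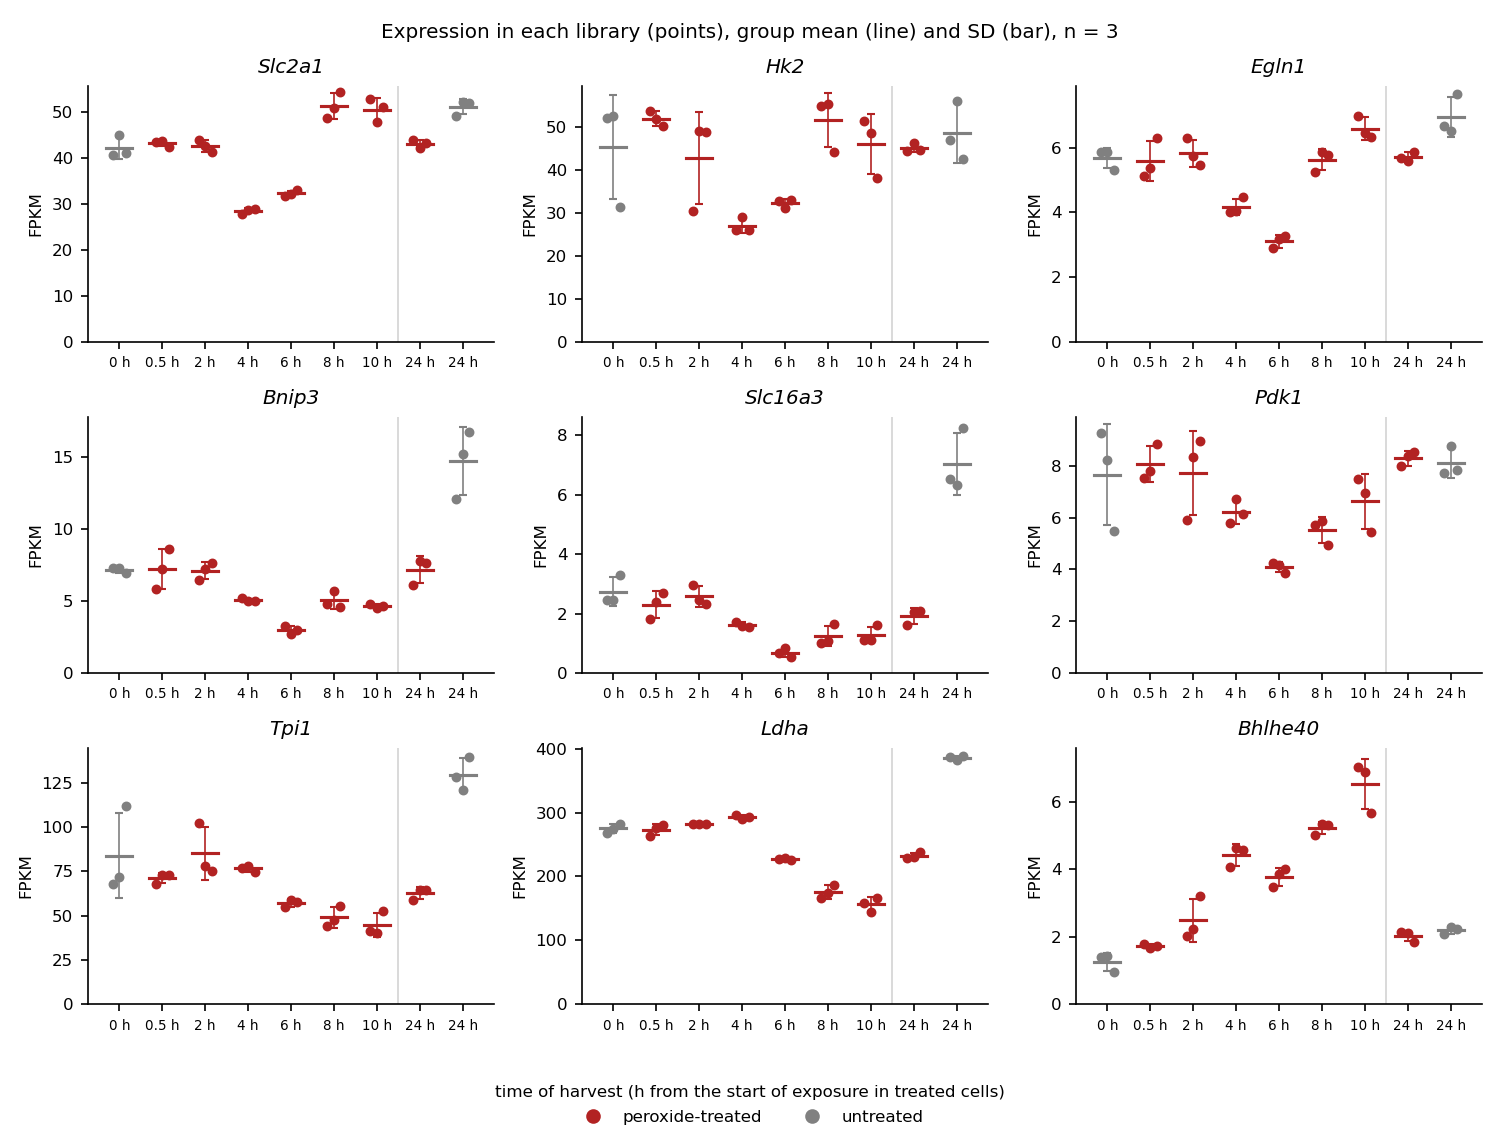
FPKM of 9 members in each of the 27 libraries (points), with the group mean (line) and SD (bar), n = 3; red is treated, grey untreated, and the pale vertical line parts the 24 h groups. Slc2a1, Hk2, Egln1, Bnip3, Slc16a3 and Pdk1 reached their lowest group mean at 4 h or 6 h, Tpi1 and Ldha at 10 h, and Bhlhe40 its highest at 10 h.

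Among the oxygen-sensing genes Egln1 (chr8:124908587-124949324), the main HIF prolyl hydroxylase, had the clearest dip. It had 5.87, 5.85 and 5.32 FPKM in untreated 0 h cells, 6.28, 5.74 and 5.46 at 2 h, 4.00, 4.05 and 4.46 at 4 h, 2.89, 3.17 and 3.27 at 6 h, 5.26, 5.87 and 5.77 at 8 h and 6.98, 6.45 and 6.31 at 10 h. The 4 h and 6 h libraries lay below all others of this series. The changes were −0.37 ± 0.075 at 4 h (adjusted p = 0.000705) and −0.70 ± 0.075 at 6 h (adjusted p = 1.33e-07). It came back by 0.69 ± 0.075 between 6 h and 8 h (adjusted p = 6.44e-07), and at 8 h and 10 h it was not called. Egln3, a prolyl hydroxylase that is itself a HIF target, was near the detection limit, with 1.23, 1.71 and 1.26 FPKM at 10 h, against 1.10, 1.00 and 0.733 FPKM in untreated 0 h cells. Its change of 0.30 at 10 h (adjusted p = 0.0384) was lost without 10 h replicate 2 (adjusted p = 0.205), without untreated 0 h replicate 3 (0.179) and with scaling (0.0889).

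Hif1a itself had 28.4, 29.0 and 27.5 FPKM at 6 h, against 25.8, 24.0 and 11.1 FPKM in untreated 0 h cells. The groups did not overlap, and untreated replicate 3, a library that stood apart, had the lowest value. The called rise of 0.55 ± 0.22 (adjusted p = 0.0468) shrank to 0.18 without the 4 libraries (adjusted p = 0.0638), and it ended on leaving out any 1 of 17 libraries (adjusted p up to 0.402). HIF activity is set mainly at the protein, which was not measured.

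Among the HIF targets outside glycolysis, Bnip3 was lower from 4 h to 10 h. Bnip3 (ENSMUSG00000078566, chr7:138890836-138909519, minus strand) encodes a mitochondrial receptor for mitophagy. It had 7.32, 7.32 and 6.91 FPKM in untreated 0 h cells, 6.49, 7.20 and 7.63 at 2 h, 5.17, 5.02 and 5.03 at 4 h, 3.24, 2.69 and 2.95 at 6 h, 4.79, 5.72 and 4.58 at 8 h and 4.82, 4.52 and 4.63 at 10 h. Every library from 4 h to 10 h was below every untreated 0 h library. The change was −0.43 ± 0.12 at 4 h (adjusted p = 0.00751), −1.05 ± 0.12 at 6 h (2.03e-07), −0.44 ± 0.12 at 8 h (0.00411) and −0.53 ± 0.12 at 10 h (0.00131). Between 6 h and 8 h it rose by 0.60 (adjusted p = 0.000464) without regaining its starting level.

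Its relative Bnip3l, also a mitophagy receptor, was lower at 6 h and 8 h by a smaller amount. It had 17.1, 16.5 and 16.5 FPKM at 6 h, against 21.2, 22.3 and 19.5 FPKM in untreated 0 h cells, and changes of −0.31 at 6 h (adjusted p = 0.000187) and −0.31 at 8 h (0.000223). It was also called lower at 10 h with scaling (−0.28) and without the 4 libraries (−0.15). Ankrd37, a small ankyrin-repeat protein gene known as a HIF target, had 0.685, 0.871 and 0.986 FPKM at 4 h and 0.487, 0.891 and 0.725 FPKM at 6 h, against 1.68, 1.44 and 2.25 FPKM in untreated 0 h cells. The groups did not overlap, and the changes were −0.59 (adjusted p = 0.00497) and −0.71 (0.000575). Ankrd37 overlaps Ufsp2 on the other strand, and the strand setting of the authors' counting is not given in the sources used here. Vegfa, the angiogenic growth factor, was lower at 8 h (−0.45, adjusted p = 0.00409). At 10 h its change of −0.32 (0.0406) was lost without 10 h replicate 2 or 3 or untreated 0 h replicate 2 (adjusted p = 0.122 to 0.145).

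Bhlhe40 went the other way. It encodes a basic helix-loop-helix repressor that is a HIF target and also responds to many other stimuli (ENSMUSG00000030103, chr6:108660629-108666925). It had 1.39, 1.41 and 0.946 FPKM in untreated 0 h cells, 1.77, 1.65 and 1.72 at 0.5 h, 2.02, 2.22 and 3.21 at 2 h, 4.06, 4.64 and 4.58 at 4 h, 3.48, 3.84 and 3.99 at 6 h, 5.01, 5.33 and 5.30 at 8 h and 7.03, 6.89 and 5.67 at 10 h. Every treated library of these times was above every untreated 0 h library. It was the only member called at 2 h (0.62 ± 0.10, adjusted p = 0.00182), and the change was 1.28 ± 0.10 at 4 h (5.67e-09) and 1.75 ± 0.10 at 10 h (1.48e-10).

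The other HIF targets outside glycolysis had smaller changes. P4ha2, a subunit of collagen prolyl hydroxylase, had 2.33, 2.34 and 2.14 FPKM at 10 h, against 1.44, 1.60 and 1.17 FPKM in untreated 0 h cells, without overlap (0.45, adjusted p = 0.000349). Its call at 8 h (0.25) was lost with scaling and on leaving out untreated 0 h replicate 3 or 8 h replicate 1 or 2 (adjusted p = 0.0613 to 0.129). P4ha1, which encodes another alpha subunit of that enzyme, was called at 6 h only (0.28, adjusted p = 0.0484), and that call ended on leaving out any 1 of 21 libraries (adjusted p up to 0.374). Ndrg1, a stress-responsive gene, was higher at 4 h (0.30, adjusted p = 0.00411) and then changed by −0.48 between 4 h and 6 h (adjusted p = 0.00011). Higd1a, a mitochondrial hypoxia-inducible gene, was called at no time, with 7.53 to 9.58 FPKM at 6 h, against 8.61 to 17.8 FPKM in untreated 0 h cells. Of the 9 tested targets of this role 2 rose and 3 fell at 6 h and at 8 h, with a median of −0.27 at each time, beside 0.00028 and 0.11 over all genes. The shares over all tested genes were 22.3% called up and 20.0% called down at 6 h, and 29.2% and 11.6% at 8 h.

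Of the 5 genes of lactate and pyruvate handling 1 fell at 4 h, 3 at 6 h, 3 at 8 h and 2 at 10 h, and none rose (12.1%, 20.0%, 11.6% and 9.43% of all genes were called lower at these times). Slc16a3 (ENSMUSG00000025161, chr11:120948480-120960868) encodes MCT4, a lactate exporter of glycolytic cells. It had 2.45, 2.45 and 3.31 FPKM in untreated 0 h cells, 2.97, 2.45 and 2.31 at 2 h, 1.72, 1.58 and 1.56 at 4 h, 0.678, 0.833 and 0.533 at 6 h, 1.02, 1.08 and 1.64 at 8 h and 1.11, 1.12 and 1.60 at 10 h. Every library from 4 h to 10 h was below every untreated 0 h library, and 6 h was the lowest group. The change was −0.51 ± 0.13 at 4 h (adjusted p = 0.00577), −1.15 ± 0.13 at 6 h (3.31e-07), −0.74 ± 0.13 at 8 h (0.000127) and −0.72 ± 0.13 at 10 h (0.000273); at levels this low the added 1 FPKM understates the fold. Its paralog Slc16a1 (MCT1) was called at no time, with 18.9 to 19.6 FPKM at 6 h, against 16.4 to 29.0 FPKM in untreated 0 h cells. Slc16a1 was lower at 6 h as well once the 4 libraries were left out (−0.54).

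Ldha, the lactate dehydrogenase subunit of glycolytic tissues, followed later (ENSMUSG00000063229, chr7:46841475-46855627). It had 268, 274 and 283 FPKM in untreated 0 h cells, 283, 282 and 281 at 2 h, 296, 290.4 and 293 at 4 h, 228, 229 and 226 at 6 h, 166, 174 and 187 at 8 h and 158, 145 and 166 at 10 h. The spread within groups was small, and every library from 6 h to 10 h was below every earlier one. Its change was −0.27 ± 0.055 at 6 h (adjusted p = 0.000363), −0.65 ± 0.055 at 8 h (1.01e-08) and −0.81 ± 0.055 at 10 h (7.75e-10). Ldhb, the subunit of oxidative tissues, was called at no time, with 96.3 to 102 FPKM at 4 h, against 71.7 to 103 FPKM in untreated 0 h cells; without the 4 libraries it was called higher at 4 h (0.38), 6 h (0.37) and 8 h (0.18). Pdk1, a HIF-target kinase that shuts off pyruvate dehydrogenase, had 4.25, 4.17 and 3.85 FPKM at 6 h, against 9.25, 8.21 and 5.49 FPKM in untreated 0 h cells, without overlap. Its change was −0.74 ± 0.14 at 6 h (adjusted p = 0.000225). At 8 h it was −0.39 (adjusted p = 0.0336), a call lost without untreated 0 h replicate 1 or 2 or 8 h replicate 1 or 3 (adjusted p = 0.0579 to 0.169).

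Of the 10 rows of upper glycolysis 3 rose and 1 fell at 4 h, 2 rose and 2 fell at 6 h, 3 rose and 4 fell at 8 h, and 1 rose and 4 fell at 10 h. The shares over all tested genes were 14.2% called up and 12.1% called down at 4 h, 22.3% and 20.0% at 6 h, 29.2% and 11.6% at 8 h, and 22.2% and 9.43% at 10 h; the 6 h counts were near them. Tpi1 (ENSMUSG00000023456, chr6:124810586-124814296, minus strand), triosephosphate isomerase, had 54.9, 59.0 and 57.4 FPKM at 6 h, 43.9, 47.4 and 55.3 at 8 h and 41.5, 40.0 and 52.7 at 10 h, against 68.1, 72.0 and 112 FPKM in untreated 0 h cells. Untreated 0 h replicate 3 was far above the other 2, as 2 h replicate 1 was within its group (102, 78.0 and 75.4 FPKM at 2 h); both libraries stood apart. The groups from 6 h on did not overlap with untreated 0 h. The change was −0.51 ± 0.14 at 6 h (adjusted p = 0.00667), −0.74 ± 0.14 at 8 h (0.000361) and −0.87 ± 0.14 at 10 h (0.000103). The 6 h call was lost without untreated 0 h replicate 3 alone (−0.29, adjusted p = 0.0573). Without all 4 libraries it was −0.29 at 6 h (adjusted p = 0.000452) and −0.77 at 10 h (9.38e-08).

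The phosphofructokinase subunits, which form the committed step of glycolysis, moved in different directions. Pfkl, the liver-type subunit, had 11.4, 9.42 and 11.8 FPKM at 10 h, against 15.5, 17.0 and 18.9 FPKM in untreated 0 h cells, without overlap. Its change was −0.41 at 8 h (adjusted p = 0.000307) and −0.61 at 10 h (5.53e-06). Pfkp, the platelet-type subunit, had 9.67, 8.71 and 7.73 FPKM at 8 h, against 16.6, 17.0 and 10.5 FPKM in untreated 0 h cells, and changes of −0.67 at 8 h (adjusted p = 0.000771) and −0.51 at 10 h (0.00906). Pfkm, the muscle-type subunit, had 12.5, 12.3 and 12.2 FPKM at 6 h, against 9.44, 10.2 and 9.98 FPKM in untreated 0 h cells, without overlap. It was called higher at 4, 6, 8 and 10 h, by 0.20, 0.30, 0.29 and 0.27, but only the 6 h call held with scaling, where the others had adjusted p = 0.094, 0.0873 and 0.111. Its 4 h call also ended without untreated 0 h replicate 1 or 4 h replicate 1 or 3 (adjusted p = 0.0531 to 0.0667). Pfkm overlaps Senp1 and Pfkp overlaps Pitrm1, each on the other strand.

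Aldoa, the main aldolase of these cells by level, had 339, 305 and 377 FPKM at 10 h, against 409, 439 and 597 FPKM in untreated 0 h cells, and a change of −0.49 (adjusted p = 0.00903). That call was lost without untreated 0 h replicate 3 (−0.32, adjusted p = 0.0704) or 10 h replicate 2 (−0.41, adjusted p = 0.0541), and the 8 h call (−0.34) without any 1 of 19 libraries (adjusted p up to 0.308). Both were called without the 4 libraries, at −0.40 and −0.28. The second Aldoa gene model lies directly upstream on the same strand (chr7:126800790-126809108) and was barely expressed, with 2.18, 2.17 and 2.31 FPKM at 6 h, against 0.550, 0.991 and 0.292 FPKM in untreated 0 h cells. It was higher at 4 h (0.93, adjusted p = 0.000249) and 6 h (1.02, 4.63e-05), times at which the main model was not called. Its 8 h call (0.58) was lost without 8 h replicate 1 or untreated 0 h replicate 3 (adjusted p = 0.058 and 0.0647). Aldoc, the brain-type aldolase, was under 3 FPKM throughout, and its call at 8 h (0.30, adjusted p = 0.0325), a time at which the brain marker sum was also higher, was lost with scaling and without any 1 of the 5 libraries untreated 0 h replicates 1, 2 and 3 and 8 h replicates 2 and 3 (adjusted p up to 0.127). Gpi1, glucose-6-phosphate isomerase, was called at 4 h only (0.18, adjusted p = 0.011), and not with scaling (0.187). With scaling it was instead called lower at 8 h (−0.19, adjusted p = 0.037), 10 h (−0.22, 0.0199) and 24 h (−0.21, 0.0495).

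Pfkfb4, one of the bifunctional enzymes that make and break the allosteric activator of phosphofructokinase, rose. It had 0.609, 0.667 and 0.565 FPKM in untreated 0 h cells, 1.16, 0.917 and 1.000 at 4 h, 0.890, 1.96 and 1.91 at 6 h, 1.82, 1.74 and 1.79 at 8 h and 1.47, 1.26 and 1.23 at 10 h. From 4 h on every library was above every untreated 0 h library. The change was 0.65 ± 0.12 at 6 h (adjusted p = 0.000181), 0.79 ± 0.12 at 8 h (2.85e-05) and 0.52 ± 0.12 at 10 h (0.00251). Pfkfb3, the kinase-dominant paralog, was called at no time, with 0.946 to 1.00 FPKM at 8 h, against 0.738 to 1.68 FPKM in untreated 0 h cells, and lower at 8 h without the 4 libraries (−0.42).

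Of the 6 enzymes of lower glycolysis 3 rose and none fell at 4 h (beside 14.2% up and 12.1% down over all tested genes), and 1 rose and 3 fell at 10 h (22.2% and 9.43%). Pgam1, phosphoglycerate mutase, had 383, 392 and 345 FPKM in untreated 0 h cells, 483, 486 and 460.2 at 4 h, 432, 431 and 429 at 6 h, 363, 375 and 389 at 8 h and 325, 291 and 317 at 10 h. The 4 h and 6 h libraries were all above the untreated ones, and the 10 h libraries all below. Its change was 0.35 ± 0.057 at 4 h (adjusted p = 6.82e-05), 0.21 ± 0.057 at 6 h (0.00553) and −0.26 ± 0.057 at 10 h (0.00148). Pgk1, phosphoglycerate kinase, was also higher at 4 h (0.22, adjusted p = 0.0141) and lower at 10 h (−0.29, 0.00216). At 6 h it was not called, with 192.5, 189.3 and 184.1 FPKM, against 185.4, 183.8 and 166.4 FPKM in untreated 0 h cells. Its 4 h call was lost without 4 h replicate 2 (0.0652) or untreated 0 h replicate 3 (0.0527). With both untreated groups as control the 4 h change of Pgk1 was −0.042. Pkm, pyruvate kinase, rose at 4 h (0.26, adjusted p = 0.00712), a call lost with a correction for GC content and length (0.21, 0.0579). It was called lower at 8 h and 10 h only with scaling (−0.21 and −0.32).

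The enolases parted. Eno1, the enolase of most cells, had 252, 238 and 269.6 FPKM at 10 h, against 302, 312 and 351 FPKM in untreated 0 h cells, without overlap (−0.34, adjusted p = 0.00148). Its 8 h call (−0.20) was lost without 8 h replicate 1 or 2 or untreated 0 h replicate 3 (adjusted p = 0.0953 to 0.165). Eno2, the neuron-type enolase, had 0.561, 0.971 and 0.604 FPKM in untreated 0 h cells, 1.13, 1.24 and 1.23 at 6 h, 1.83, 1.51 and 1.46 at 8 h and 1.81, 1.91 and 1.63 at 10 h. All libraries from 6 h to 10 h were above the untreated ones. The brain marker sum was above its untreated 0 h range in all libraries at 8 h and 10 h and in 2 of 3 at 6 h, and its part in these values was not tested. The changes were 0.37 ± 0.09 (adjusted p = 0.00221), 0.61 ± 0.09 (1.68e-05) and 0.71 ± 0.09 (4.66e-06). The difference in level between the paralogs stayed large, since Eno1 was at 238 FPKM or more in every library and Eno2 under 2.

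Gapdh could not be measured reliably. It had 23.1, 21.2 and 63.3 FPKM at 10 h, against 113, 58.6 and 46.6 FPKM in untreated 0 h cells. Within a group its highest library exceeded its lowest by a median of 2.91-fold, against a median of 1.16-fold for the 36 other tested rows. It was called at no time, with changes of −1.07 ± 0.62 at 8 h and −1.08 ± 0.62 at 10 h. The processed pseudogenes Gapdh-ps15 and Gapdh-ps16, near-identical copies of the mRNA, were listed at 69.8 to 167 and 41.4 to 99.6 FPKM. How reads were divided between the gene and its copies is not given in the sources used here. Eno1b, a retrocopy of Eno1, was listed at 296 to 635 FPKM, with a higher mean than Eno1 in every group, and changed in the same direction at 10 h (−0.48, adjusted p = 0.0197). Pgam1-ps2 was listed at 26.8 to 53.9 FPKM and rose with Pgam1 at 4 h (0.45, adjusted p = 0.015). Untreated 0 h replicate 3, which stood apart, had 626 FPKM of Eno1b, against 390 and 423 FPKM in replicates 1 and 2. For Pgam1-ps2 that library had 26.8 FPKM, against 43.8 and 44.9 FPKM. The changes of the copies without that library are not given here. With the division of reads unknown, the levels of Gapdh and Eno1 are uncertain, although Eno1 spread within groups by a median of 1.08-fold only. Those of Pgam1 and Tpi1 are uncertain to a smaller degree, as Tpi-rs11 stayed between 0.81 and 6.19 FPKM.

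**Figure D4:**
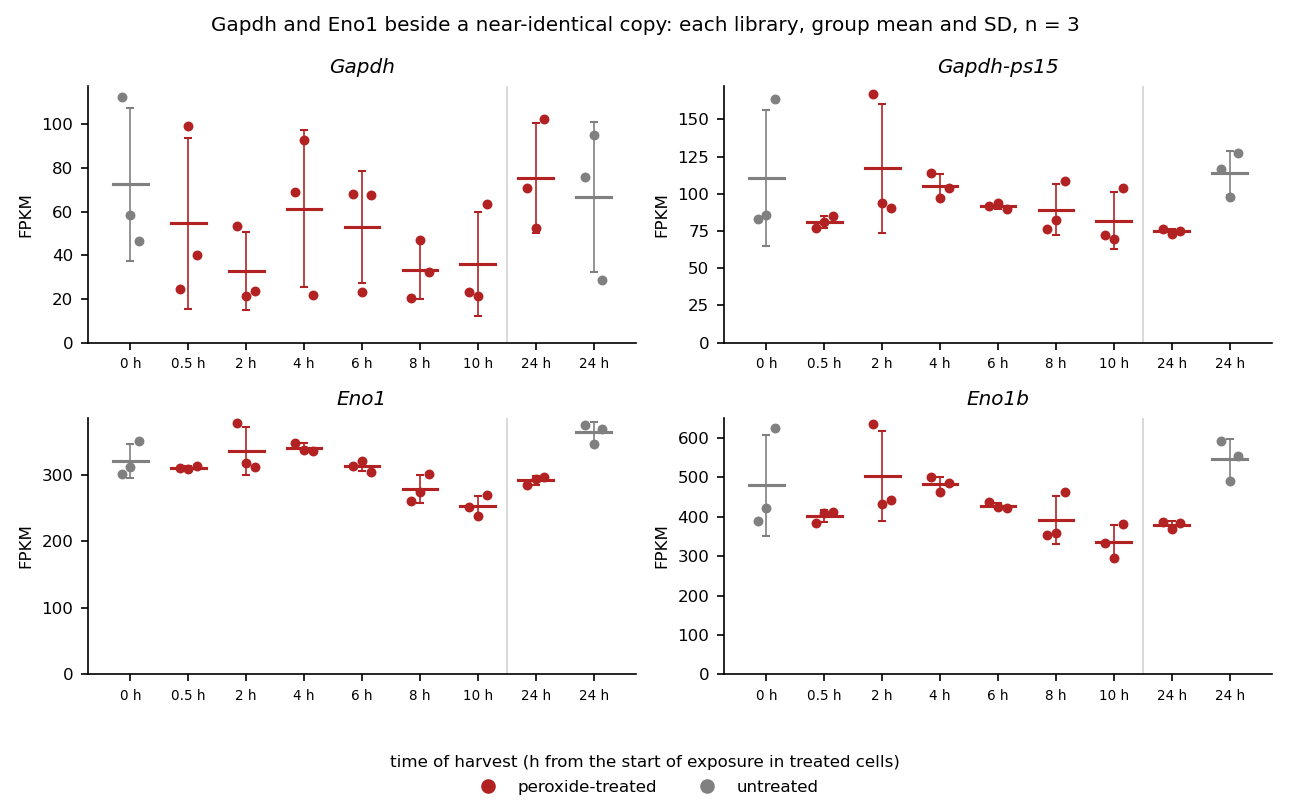
FPKM of Gapdh and Eno1 and of a near-identical copy of each in every library (points), with the group mean (line) and SD (bar), n = 3; red is treated, grey untreated. Gapdh libraries of 1 group lie up to 4.21-fold apart, while Gapdh-ps15 is at 69.8 FPKM or more in every library.

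At 24 h 14 of the 37 rows were lower in treated cells than in untreated cells of the same age, 1 was higher and 22 were not called. Those that fell were Slc2a1, Pfkl, Aldoa, Aldoc, Tpi1, Pgk1, Pgam1, Eno1, Pkm, Ldha, Slc16a3, Egln1, Bnip3 and Ankrd37, and Pfkm rose. The median change of the rows was −0.15, beside 0.069 over all genes. The lower calls took in 4 of the 6 lower glycolysis enzymes and 4 of 10 rows of upper glycolysis. Without the 4 libraries that stood apart 5 rows rose and 18 fell. Over all 13614 genes that fit called 4503 higher and 2484 lower, against 1175 and 582 in the main fit. Leaving out untreated 24 h replicates 1 and 3 as well leaves 1 library in that group, which is assumed to vary like the other groups. No count is given for that fit, in which the median change of all genes was 0.046.

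Slc16a3 had 1.61, 2.04 and 2.10 FPKM in treated 24 h cells, against 6.52, 6.35 and 8.24 FPKM in untreated 24 h cells (−1.46 ± 0.13, adjusted p = 2.86e-07). Bnip3 had 6.11, 7.77 and 7.65 FPKM in treated 24 h cells, against 12.1, 15.2 and 16.7 FPKM in untreated 24 h cells (−0.94 ± 0.12, adjusted p = 1.95e-05). Neither gene's groups overlapped. Tpi1 had 58.7, 64.3 and 64.6 FPKM in treated 24 h cells, against 128, 121 and 139.6 FPKM in untreated 24 h cells (−1.04 ± 0.14, adjusted p = 7.81e-05). Ldha had 229, 229.9 and 238 FPKM in treated 24 h cells, against 386, 383 and 389 FPKM in untreated 24 h cells (−0.73 ± 0.055, adjusted p = 3.01e-08). For Ldha the gap between the groups was more than 10 times the range within either. Pgk1 had 175, 178 and 178 FPKM in treated 24 h cells, against 246, 262 and 266 FPKM in untreated 24 h cells (−0.54 ± 0.066, adjusted p = 1.69e-05). Pfkm, the exception, had 12.3, 11.8 and 13.1 FPKM in treated 24 h cells, against 9.41, 8.54 and 8.78 FPKM in untreated 24 h cells (0.44 ± 0.059, adjusted p = 5.81e-05).

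The remaining falls at 24 h were smaller. Aldoa (−0.60), Pfkl (−0.55), Pkm (−0.34), Eno1 (−0.32), Pgam1 (−0.28) and Slc2a1 (−0.24) were called with every single library left out. The call of Aldoc (−0.46, adjusted p = 0.00829) was lost without untreated 24 h replicate 3 (−0.36, adjusted p = 0.0673). That of Egln1 (−0.24, 0.0366) was lost without any 1 treated 24 h replicate or untreated 24 h replicate 1 or 3 (adjusted p up to 0.198). That of Ankrd37 (−0.47, 0.0431) was lost without any 1 of 12 libraries (adjusted p up to 0.17). Bhlhe40, the strongest riser of the first 10 h, had 2.13, 2.10 and 1.85 FPKM in treated 24 h cells, against 2.07, 2.30 and 2.21 FPKM in untreated 24 h cells, and was not called (−0.078, adjusted p = 0.6).

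The level of the untreated 24 h cells bears on every one of these differences, because they enter both comparisons. Compared with untreated 0 h cells, 11 members were higher in untreated 24 h cells: Slc16a3 (1.10), Bnip3 (0.93), Tpi1 (0.65), Pgk1 (0.53), Aldoc (0.52), Bhlhe40 (0.51), Ldha (0.49), Pfkl (0.43), Pkm (0.41), Pgam1 (0.34) and Slc2a1 (0.27). The median change of the rows was 0.25, beside 0.019 over all genes, of which 96 were called. Bnip3 rose to 12.1, 15.2 and 16.7 FPKM in untreated 24 h cells, against 7.32, 7.32 and 6.91 FPKM in untreated 0 h cells (adjusted p = 0.000142). Slc16a3 rose to 6.52, 6.35 and 8.24 FPKM in untreated 24 h cells, against 2.45, 2.45 and 3.31 FPKM in untreated 0 h cells (adjusted p = 0.000118). In neither gene did the groups overlap.

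With 1 library left out the call ended for 5 of these 11: Tpi1 without any 1 of 12 libraries (adjusted p up to 0.16), Aldoc without untreated 0 h replicate 1 or 2 or untreated 24 h replicate 1 or 3 (up to 0.16), Bhlhe40 without untreated 0 h replicate 3 or any untreated 24 h replicate (up to 0.11), Pfkl without untreated 0 h replicate 1 or untreated 24 h replicate 1 (up to 0.0617), and Slc2a1 without untreated 0 h replicate 1 or untreated 24 h replicate 2 or 3 (up to 0.0988). With scaling the calls of Slc2a1 (adjusted p = 0.0943), Pfkl (0.0689) and Tpi1 (0.142) were lost. Without the 4 libraries that stood apart 17 rows were higher and 2 lower, beside 1593 higher and 2507 lower of all 13614 genes. A limma fit of the 6 untreated libraries alone called no member and 12 of all genes (372 of all genes at an unadjusted p under 0.05). Both comparisons of the untreated 24 h cells also differ in the hepatocyte marker sum, at 1.46 to 2.03 in treated 24 h cells, against 46.7 to 63.1 in untreated 24 h cells, with 1.69, 1.73 and 7.43 in untreated 0 h cells; its part in these results was not tested.

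Set against untreated 0 h cells instead, an alternative added after the data were seen, treated 24 h cells differed in 5 members (10.4% of all genes, 8.2% higher and 2.18% lower). Ldha was lower (−0.24, adjusted p = 0.0079), and Bhlhe40 (0.43, 0.0118), P4ha2 (0.42, 0.00318), Pfkm (0.30, 0.00273) and Ndrg1 (0.25, 0.0429) were higher. Slc16a3 was at −0.35 (adjusted p = 0.0826), Tpi1 at −0.38 (0.0868) and Bnip3 at −0.0066 (0.972), none of them called. Of the 14 falls at 24 h, therefore, only that of Ldha was also called against the earlier untreated cells. Ldha had 229, 229.9 and 238 FPKM in treated 24 h cells, against 268, 274 and 283 FPKM in untreated 0 h cells, without overlap. Slc16a3 (1.61 to 2.10 FPKM, against 2.45 to 3.31), Tpi1 (58.7 to 64.6, against 68.1 to 112) and Eno1 (285 to 298, against 302 to 351) did not overlap either. For the rest of the 14 falls the groups overlapped. The share of all tested genes without overlap between these groups is not given here, so the separation of single genes carries little weight. Untreated 0 h replicate 3, which stood apart, had the highest untreated 0 h value of Slc16a3, Tpi1, Eno1 and Ldha. The lack of a call therefore does not show a return to the 0 h level.

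**Figure D5:**
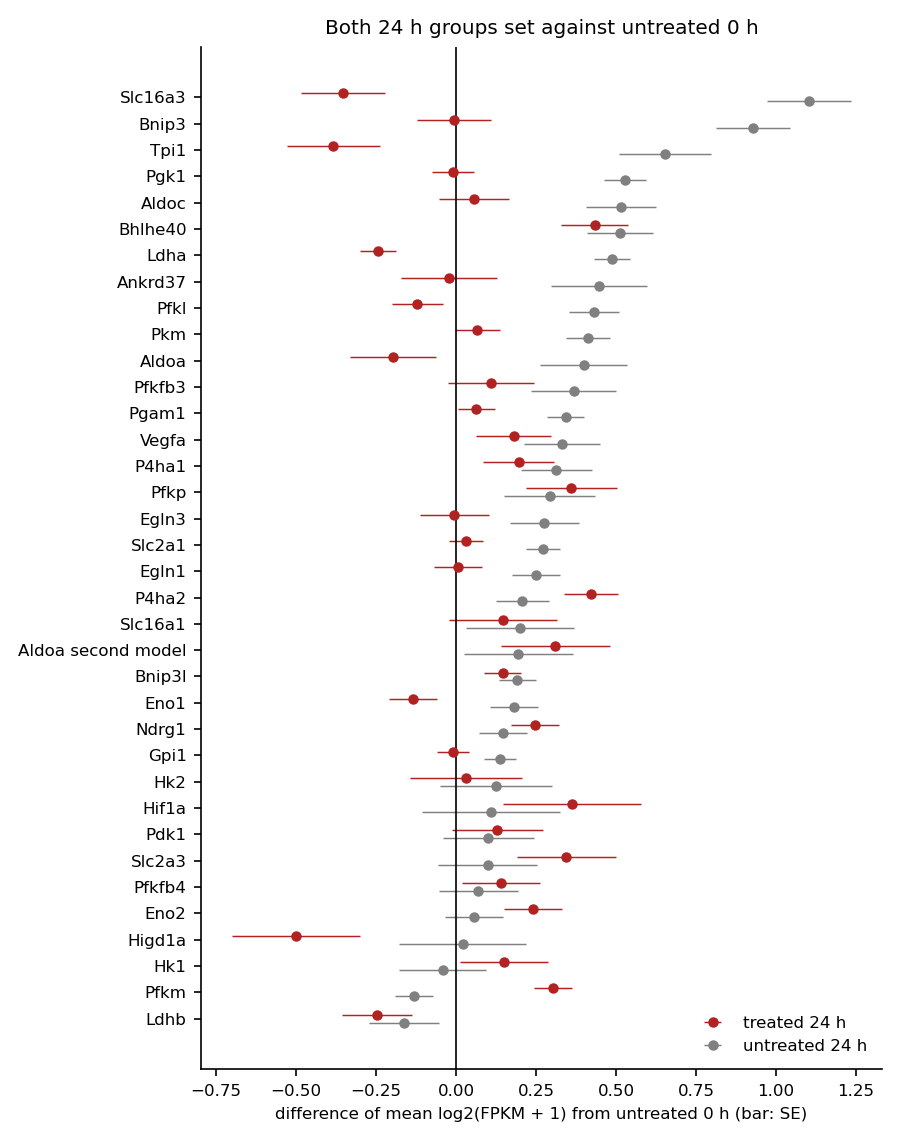
Difference of mean log2(FPKM + 1) from untreated 0 h for 36 tested rows (Gapdh left out), in treated 24 h cells (red) and untreated 24 h cells (grey), n = 3 libraries a group; bars are the SE from limma. Grey points of Slc16a3, Bnip3 and Tpi1 lie at 1.10, 0.93 and 0.65, with the red points of the same genes at or left of 0.

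The difference between the 24 h effect and the 10 h effect was tested as such and called 7 members, all lower (8.7% of all genes, 2.95% higher and 5.75% lower). Besides Slc16a3 (−0.74 ± 0.19, adjusted p = 0.0137) these were Bhlhe40 (−1.82, 7.81e-08), Egln3 (−0.58, 0.0194), Aldoc (−0.57, 0.0221), Eno2 (−0.52, 0.0119), Slc2a1 (−0.49, 0.000191) and Egln1 (−0.43, 0.0134). Bhlhe40, Egln3, Eno2 and Slc2a1 had been called higher at 10 h. Tpi1, Ldha and Pfkl, low at both times, were not called in this difference.

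Other genes of the same pathways, from lists written without the members, changed in both directions. Of 37 further glycolysis and pyruvate genes 28 were tested, of which 3 rose and 3 fell at 4 h, 5 rose and 10 fell at 6 h, 9 rose and 5 fell at 8 h, 3 rose and 4 fell at 10 h, and 2 rose and 4 fell at 24 h. The shares over all tested genes were 14.2% called up and 12.1% called down at 4 h, 22.3% and 20.0% at 6 h, 29.2% and 11.6% at 8 h, 22.2% and 9.43% at 10 h, and 8.63% and 4.28% at 24 h. The median change of the list was 0.014 at 4 h, −0.058 at 6 h, 0.082 at 8 h, −0.027 at 10 h and −0.055 at 24 h. Pck2, the mitochondrial enzyme that makes phosphoenolpyruvate, had 1.93 ± 0.0955 FPKM at 10 h, against 5.00 ± 0.307 FPKM in untreated 0 h cells (SD, n = 3 each; −1.03, adjusted p = 1.59e-10). Pgp, a phosphatase that clears phosphoglycolate, was lower at 4 h (−0.66, adjusted p = 0.00821) and 6 h (−0.78, 0.00134). Tigar, a p53 target that lowers the activator of phosphofructokinase, was lower at 4 h (−0.26, 0.00372). Pfkfb2, a further bifunctional enzyme, was higher like Pfkfb4, at 2.07 ± 0.704 FPKM at 8 h, against 0.633 ± 0.250 FPKM in untreated 0 h cells (0.89, adjusted p = 0.000556). At 24 h the gluconeogenic genes Fbp1 (0.57, 0.00101) and Fbp2 (0.61, 0.00218) were higher in treated cells.

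Of 40 further HIF pathway symbols 39 were found among the gene names, and 29 genes were tested. Of these 2 rose and 5 fell at 4 h, 5 rose and 10 fell at 6 h, and 8 rose and 7 fell at 8 h. At 10 h 7 rose and 3 fell, and at 24 h 5 rose and 2 fell. The shares over all genes given for the glycolysis list stand beside these counts too. The median change of this list was −0.048 at 4 h, −0.14 at 6 h, −0.011 at 8 h, 0.038 at 10 h and 0.093 at 24 h. Cited2, a HIF target that competes with HIF for its coactivator, was the only one called at 2 h (−0.80, adjusted p = 1.04e-05). At 4 h it had 3.05 ± 0.225 FPKM, against 15.3 ± 1.15 FPKM in untreated 0 h cells (−2.01, 3.88e-13). Rcor2, a corepressor subunit of the LSD1 complex, had 14.4 ± 1.10 FPKM at 6 h, against 45.9 ± 3.37 FPKM in untreated 0 h cells (−1.60, 4.51e-12). Kdm3a, a histone demethylase and HIF target, was lower at 4 h (−0.49, 0.0385) and 6 h (−0.82, 0.000556). Plod2, a collagen lysyl hydroxylase and HIF target, was higher, with 23.5 ± 0.722 FPKM at 6 h, against 9.35 ± 3.74 FPKM in untreated 0 h cells (1.32, 4.75e-05). At 24 h Anxa2, a membrane-binding annexin (1.07, 5.18e-07), and Epas1, which encodes the HIF-2 alpha subunit (0.55, 0.00116), were higher in treated cells, and Angptl4, a HIF target, was lower (−0.38, 0.0215).

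The significance marks in the authors' deposited table were fewer. They fell on 0, 0, 3, 6, 5 and 4 member rows at 0.5, 2, 4, 6, 8 and 10 h and on 3 at 24 h. The authors' deposited table marked Slc16a3 at 6, 8, 10 and 24 h, Bnip3 at 6 h and 24 h, Tpi1 at 24 h, Gapdh at 8 h, Ankrd37 and the second Aldoa model at 4 h and 6 h, Bhlhe40 at 4, 6, 8 and 10 h, Pfkfb4 at 6, 8 and 10 h, and Eno2 at 8 h and 10 h. Of all 38352 genes it marked 0.415% at 0.5 h, 0.229% at 2 h, 3.27% at 4 h, 6.58% at 6 h, 3.69% at 8 h, 2.44% at 10 h and 2.27% at 24 h. These marks cover all 38 member rows and genes below the filter used here, so their counts and shares have another base than the calls above.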

How the data were processed

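Poly(A) RNA was sequenced with a stranded kit, per the labels' protocols. The authors deposited FPKM values per gene and library in 7 tables, one for each treated time; the tools named for the authors' work in the submitters' processing notes are cutadapt, FastQC, HISAT2, StringTie and edgeR, with the build mm10 and no versions. The tables also hold the authors' linear fold change, log2 fold change, p-value and q-value of each comparison, of which only the significance marks were used. FPKM gives no read counts, so depth, and with it counting error, is unknown, and no count test was run. The summed FPKM was 294485 to 395760 per library.

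The tables were joined by gene ID (38352 genes in each, with identical values in recurring columns). Values were taken as log2(FPKM + 1), genes with at least 1 FPKM in at least 3 libraries were kept (13614), and a single limma trend fit over all 27 libraries (limma 3.58.1, R 4.3.3; moderated test, two-sided, Benjamini-Hochberg adjustment over all tested genes in each comparison, threshold 0.05) gave every change and its SE. The added 1 FPKM understates the change of low genes. The steps were tested on simulated data. Positions come from the files and GENCODE M21 on GRCm38, the same build as mm10.

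The labels describe replicates as biological, from independent time courses. Samples of the same number deviated together from their group means at 8 h (correlations with untreated 0 h of 0.46, 0.46 and 0.69) and 10 h (0.56, 0.57 and 0.80), so a fit with the replicate block was run beside the main one. In these groups the library that stood apart was replicate 3 each time. At 2 h, where it was replicate 1, the correlations were −0.80, 0.64 and −0.77. Shared replicates and the shared number of these libraries cannot be told apart by such correlations.

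Members and gene lists were chosen with earlier results of these data known. Values per library are given for members with a called change of at least 1 and for up to 3 further members of each role with the lowest adjusted p; Hk2, Aldoa, Aldoc, Eno1, Gapdh and the near-identical copies were added after their values were seen. From each other list up to 5 called genes with the largest change were eligible in each comparison. Alternatives were pseudocount, filter, scaling, samples fitted, replicate block and leaving out libraries; leaving out the 4 libraries that stood apart, alone or with untreated 24 h replicates 1 and 3, a correction for GC content and length, library weights and the earlier untreated control at 24 h were added after seeing the data. FPKM of different genes were compared only as values per length.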

Additional observations from a re-analysis of the deposited data

Results flagged for a closer look

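For 7 members the treated minus untreated difference at 24 h was lower than that at 10 h by a test of the difference itself (limma, adjusted p below 0.05). The 2 effects have different untreated controls, which were harvested at 24 h and at 0 h. For Bhlhe40 the difference was −1.82 (adjusted p = 7.81e-08) and for Slc16a3 −0.74 (0.0137). It was −0.58 for Egln3 (0.0194) and −0.57 for Aldoc (0.0221). It was −0.52 for Eno2 (0.0119), −0.49 for Slc2a1 (0.000191) and −0.43 for Egln1 (0.0134). The call of Aldoc ended without 10 h replicate 1, treated 24 h replicate 2 or 3 or untreated 24 h replicate 3 (adjusted p up to 0.0722). That of Egln3 ended without 10 h replicate 2, treated 24 h replicate 2 or untreated 24 h replicate 3 (up to 0.058).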

How the results depend on the processing

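A fit of only the libraries compared called 0 members at 2 h, 4 at 4 h, 8 at 6 h, 5 at 8 h, 4 at 10 h, 0 for untreated 24 h over 0 h, and 2 for the 24 h minus 10 h contrast. Over all 13614 genes that fit called 3 at 2 h, 1061 at 4 h, 2713 at 6 h, 1537 at 8 h and 484 at 10 h. It called 12 of them for untreated 24 h over 0 h and 417 for the contrast. At 24 h it called more of all genes than the main fit did, 4882 against 1757. Without the 4 libraries that stood apart the counts were 2 at 2 h, 22 at 4 h, 23 at 24 h, 19 for untreated 24 h over 0 h and 11 for the 24 h minus 10 h contrast. Calls over all genes rose too, to 342, 6883, 6987, 4100 and 3665 of 13614 in these comparisons. The main fit had called 145, 3577, 1757, 96 and 1184. Library weights gave 4 at 2 h, 25 at 4 h, 23 at 24 h, 19 for untreated 24 h over 0 h and 13 for the 24 h minus 10 h contrast. With the weights 1655, 7776, 7465, 5021 and 4388 of all 13614 genes were called in these comparisons. The GC and length correction gave 2 at 2 h, 24 at 24 h and 18 for untreated 24 h over 0 h, scaling gave 2 at 2 h, the 5 FPKM filter gave 4 for the 24 h minus 10 h contrast, and untreated 0 h cells as control gave 5 at 24 h. Over all genes the correction called 327, 2715 and 396 of 13602 in its comparisons, and scaling 183 of 13566. The filter called 722 of 8223 genes and the untreated 0 h control 1413 of 13614. The cause of these shifts was not tested.

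With 1 library left out the counts ranged from 0 to 0 at 0.5 h, 1 to 2 at 2 h, 13 to 16 at 4 h, 15 to 20 at 6 h, 14 to 20 at 8 h, 15 to 20 at 10 h, 12 to 19 at 24 h, 7 to 11 for untreated 24 h over 0 h and 5 to 10 for the 24 h minus 10 h contrast. No called value of a member changed its direction in these fits.

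Under other alternatives 22 values of single members reversed. Without the 4 libraries Slc2a3 was −0.15 at 4 h and −0.20 at 6 h, and Hif1a −0.26 for untreated 24 h over 0 h. With library weights Slc2a3 was −0.13 and −0.19 at these times, Hk1 −0.16 at 4 h and −0.17 for the step to 4 h, Hif1a −0.29 for untreated 24 h over 0 h, and Aldoa 0.13 for the step to 4 h. With the GC correction Slc2a3 was −0.14 at 6 h and −0.21 at 8 h, P4ha1 −0.18 at 8 h, Pfkp −0.28 and Pdk1 −0.19 at 24 h. With both untreated groups as control Pgk1 was −0.042 at 4 h, and with scaling Pgam1 −0.15 at 8 h. Against untreated 0 h cells the 24 h values of Slc2a1 (0.031), Aldoc (0.057), Pgam1 (0.064), Pkm (0.067), Egln1 (0.0071) and Bhlhe40 (0.43) reversed.

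With the replicate block the number of called members was 19 at 6 h, where P4ha2 was gained (adjusted p = 0.0458), and equal to that without it at the other times and for untreated 24 h over 0 h. For the step between 6 h and 8 h the block ended the calls of Gpi1 (0.0544), Pgk1 (0.0529) and Pkm (0.0585) and added Pfkp (0.0412). Apart from 8 h and 10 h samples of the same number did not deviate together in all pairs. The median SE of a change over all tested genes was 0.13, which limits what could be called.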
